A study of Rattus norvegicus with 5 samples.

Results

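Interleukin 17 (IL-17) signalling in rat skin was followed through 7 genes: the cytokines Il17a, Il17f and Il22, the receptor chain Il23r of cells that make them, and the receptor chains Il17ra, Il17rc and Il22ra1 of cells that answer them. These 7 were taken by symbol from the 30017 gene symbols of the deposited tables. Each symbol had 1 row, Il17a (ENSRNOG00000012467), Il17f (ENSRNOG00000012509), Il22 (ENSRNOG00000007365), Il23r (ENSRNOG00000007544), Il17ra (ENSRNOG00000011153), Il17rc (ENSRNOG00000027376) and Il22ra1 (ENSRNOG00000027976). The 7 were selected on their UMI levels by cell class in these same libraries, so those levels are given as a description with no test. The data are 5 droplet-based single-cell RNA libraries of Sprague-Dawley rat skin, 1 of control skin without irradiation and the other 4 of irradiated skin on days 7, 14, 28 and 60. Per the study's methods the animals were male and the skin of the buttock received a single electron-beam exposure, and dose and age stand only in those methods, while the labels give neither and no number of animals per library. The day 60 library is missing from those methods, and its tie to the other 4 is not known. With 1 library per group, irradiation and the animal, the dissociation and the library preparation cannot be told apart.

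IL-17A and IL-17F are secreted by T helper 17 cells, by many skin-resident gamma delta T cells and by group 3 innate lymphoid cells. They bind a receptor built from the chains IL-17RA and IL-17RC, and in epithelium and fibroblasts they raise chemokines that draw neutrophils, antimicrobial proteins and matrix proteases. IL-22 comes from overlapping sets of lymphoid cells and acts on epithelium through IL-22RA1 and IL-10RB, while IL-23, a pair of the chains Il23a and Il12b, maintains the producing cells through IL-23R and IL-12RB1. In skin this axis is known for defence against microbes, for wound repair and for psoriasis.

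The promoters of the 2 lead cytokines and of the IL-23 receptor chain are shown, searched for AGGTCA, a half-site bound by many nuclear receptors. Sequences are from RefSeq on the build GRCr8, not the build Rnor_6.0 of the deposited tables, and cover the 250 bases before the annotated start, read 5' to 3' on the gene's strand. They lie at chr9:30640594-30640843 on the plus strand for Il17a, at chr9:30697919-30698168 on the minus strand for Il17f and at chr4:98003760-98004009 on the minus strand for Il23r. Capitals mark AGGTCA or its reverse complement TGACCT, searched on both strands.
Il17a: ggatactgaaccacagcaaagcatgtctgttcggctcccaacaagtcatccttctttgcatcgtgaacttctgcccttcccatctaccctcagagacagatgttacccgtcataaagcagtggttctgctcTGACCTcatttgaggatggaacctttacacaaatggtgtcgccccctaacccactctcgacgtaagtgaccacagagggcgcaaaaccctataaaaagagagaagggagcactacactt
Il17f: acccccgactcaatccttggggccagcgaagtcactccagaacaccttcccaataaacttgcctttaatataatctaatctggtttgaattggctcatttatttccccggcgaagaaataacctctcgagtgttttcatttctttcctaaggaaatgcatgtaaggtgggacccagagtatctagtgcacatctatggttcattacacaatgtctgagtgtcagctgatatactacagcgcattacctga
Il23r: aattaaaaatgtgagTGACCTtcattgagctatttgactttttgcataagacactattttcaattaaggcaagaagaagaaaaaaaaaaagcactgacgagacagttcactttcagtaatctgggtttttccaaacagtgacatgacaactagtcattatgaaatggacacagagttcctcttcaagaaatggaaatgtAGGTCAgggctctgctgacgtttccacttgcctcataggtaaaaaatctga
The Il17a window held 1 match on the opposite strand, 119 bases before the start. The Il23r window held 2, at 51 bases before the start on the gene's strand and at 235 bases on the opposite strand. No match was present in the windows of Il17f, Il17rc or Il22ra1, and 5 of the 7 genes had a window in the table. Of 33469 rat promoter windows of the same length, 4707 (14.1%) held a match, so a match is common and describes letters only.

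The 5 libraries held 49507 barcodes and 525515038 unique molecular identifiers (UMIs, each counting 1 captured RNA molecule), with 70073362 to 139566348 UMIs per library. After filters on depth and mitochondrial RNA 43408 cells remained, from 4370 on day 14 to 11304 on day 7. The cells were placed in 14 classes by marker genes that include none of the 7 genes, and each class name stands for cells like that type. Another 2421 cells (5.58%) scored too close for 2 classes or too low for any and stayed ungated. The same barcode sequence occurred in more than 1 library for 514 barcodes, 24 of them kept lymphoid cells. Levels are the UMIs of a gene for every 1000000 UMIs of a class in a library (CPM), shares are percent of cells with at least 1 UMI, and ranges in parentheses are 95% intervals. These intervals are exact and cover counting error only.

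Lymphoid cells, gated by T cell and innate lymphoid markers such as Cd3e, Lck and Il7r, held most transcripts of the 3 cytokines. They were 99 cells (0.975% of kept cells) in control, 141 (1.25%) on day 7, 529 (12.1%) on day 14, 1396 (15.5%) on day 28 and 269 (3.15%) on day 60. Of the 18117 Il17a UMIs in kept cells, 87.1% (86.6 to 87.6) lay in this class, which was 5.61% of kept cells. The share was 89.4% (88.0 to 90.6) of 2182 UMIs for Il17f and 92.5% (89.7 to 94.7) of 467 UMIs for Il22. Of the 224 Il23r UMIs, 74.1% (67.9 to 79.7) were in lymphoid cells and 15.2% in fibroblasts.

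Within lymphoid cells, Il17a, the signature cytokine of the axis, was 12.9 CPM in control (6 UMIs), 116 on day 7 (73 UMIs), 1048 on day 14 (2112 UMIs), 5178 on day 28 (12680 UMIs) and 831 on day 60 (909 UMIs). The order from high to low was day 28, day 14, day 60, day 7 and control, and no pair of neighbours had overlapping counting intervals. The intervals were 4.75 to 28.1 in control, 91.0 to 146 on day 7, 1004 to 1094 on day 14, 5088 to 5269 on day 28 and 778 to 887 on day 60. The gap between day 14 and day 60 was the narrowest, and leaving out the single cell with the most Il17a in each library gave 892 on day 14 and 721 on day 60. When every cell was thinned to 1000 UMIs, the order of these 2 turned, with 789 on day 14 and 1019 on day 60. The top cell mattered most where few UMIs were counted, with 2.17 CPM left in control and 69.6 on day 7.

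The share of lymphoid cells with an Il17a UMI was 2.02% in control, 7.80% on day 7, 14.6% on day 14, 60.7% on day 28 and 17.8% on day 60. Depth differed, with a median of 1554 UMIs per lymphoid cell on day 28 against 3520 to 4143 in the other libraries. With thinned cells and shallower cells left out, 236 of them on day 28, the shares were 1.01%, 2.96%, 12.2%, 57.2% (54.3 to 60.1) and 14.7%, so the shallowest library still had the largest share. On day 28 transcripts were spread over many cells, 847 with at least 1 UMI and 361 with at least 10, and 116 cells held 50% of them. On day 14 a few cells carried most of the message, since 6 of 77 positive cells held 50% and the top cell alone had 323 UMIs. On day 60, 7 of 48 positive cells held 50%.

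**Figure D1:**
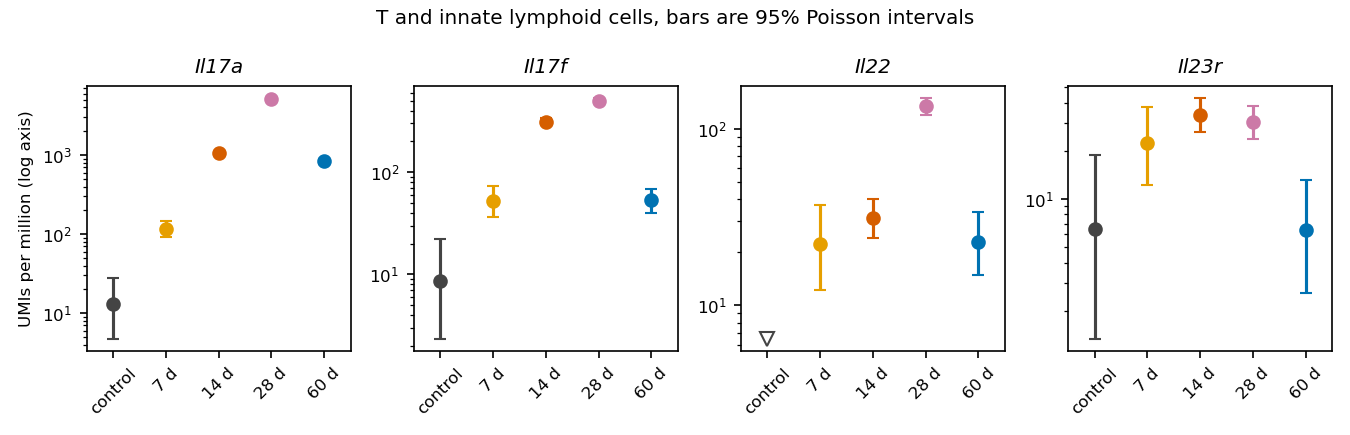
Level of Il17a, Il17f, Il22 and Il23r in lymphoid cells of each library, in CPM on log axes, with bars for 95% Poisson intervals and an open triangle at the 3-count limit where no UMI was found. Il17a runs from 12.9 in control to 5178 on day 28, while Il23r sits between 6.40 and 33.7.

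Il17f, the close relative that can pair with IL-17A, was 8.62 CPM in control (4 UMIs), 52.5 on day 7, 311 (287 to 336) on day 14, 501 (474 to 530) on day 28 and 53.0 (40.3 to 68.5) on day 60. The day 7 and day 60 levels did not differ beyond their intervals, and without the top cell they were 32.1 and 33.0. All 4 control UMIs lay in 1 cell. Il22, the cytokine directed at epithelium, had no UMI in control lymphoid cells, where 3 UMIs would have been 6.47 CPM. Its levels were 22.3 on day 7, 31.3 on day 14, 135 (121 to 150) on day 28 and 22.9 on day 60, and the intervals of days 7, 14 and 60 overlapped. Without the cell that held most Il22, the day 7 level was 14.4. Both cytokines were thus highest on day 28, as Il17a was.

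The balance of the cytokines differed between libraries. For 100 Il17a UMIs lymphoid cells held 45.2 Il17f UMIs (29.0 to 69.1) on day 7, 29.7 (27.1 to 32.5) on day 14, 9.68 (9.13 to 10.3) on day 28 and 6.38 (4.81 to 8.32) on day 60. The control value, 66.7, rested on 4 and 6 UMIs and its interval reached from 13.8 to 281. Without the top Il17f cell the ratio was 27.4 on day 7, 27.9 on day 14, 9.34 on day 28 and 4.58 on day 60. In those values day 7 and day 14 were level. Without the top Il17a cell instead, the ratio was 48.8, 35.0, 9.82 and 4.58 on days 7, 14, 28 and 60. Either way days 7 and 14 lay above days 28 and 60. Il22 was 19.2 UMIs (9.99 to 34.3) per 100 Il17a UMIs on day 7 and 2.60 to 2.98 on days 14, 28 and 60.

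On days 14, 28 and 60 most cells with Il17f also held Il17a. Of Il17f-positive lymphoid cells 34 of 50 also had an Il17a UMI on day 14, 213 of 236 on day 28 and 10 of 11 on day 60, where 14.6%, 60.7% and 17.8% of all lymphoid cells did. On day 7, 2 of 6 did. Il22-positive cells also held Il17a in 5 of 9 on day 7, 12 of 17 on day 14, 94 of 125 on day 28 and 2 of 8 on day 60. All 3 cytokines were counted in 7 cells on day 14 and 22 cells on day 28. A cell with more UMIs in all is more likely to show any pair of genes, and Il17a-positive cells had a median of 4447 UMIs on day 14 and 1619 on day 28 against 3431 and 1446 in the other lymphoid cells.

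**Figure D2:**
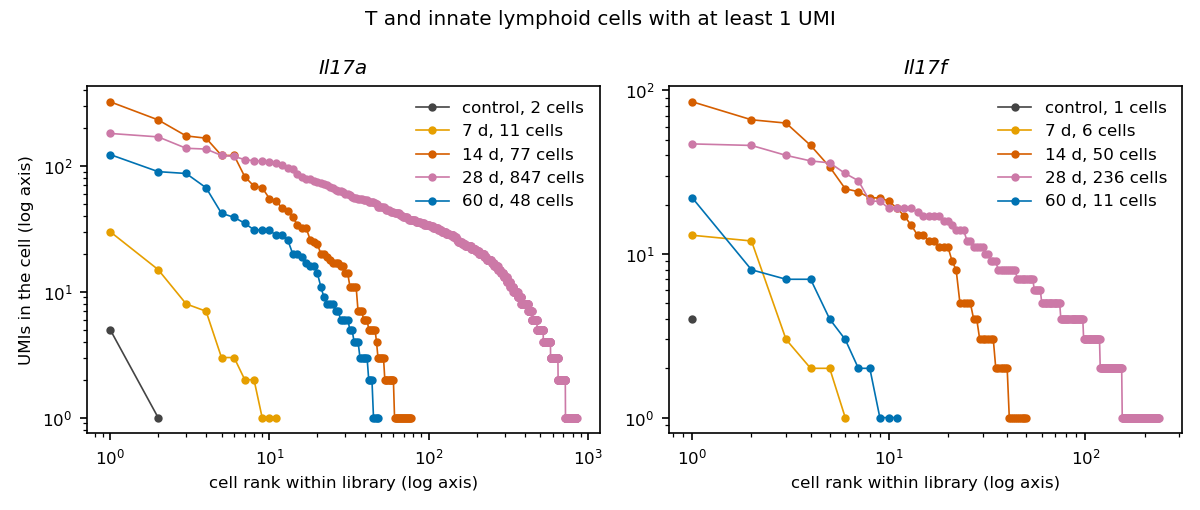
UMIs of Il17a (left) and Il17f (right) in each lymphoid cell with at least 1 UMI, ranked from high to low within its library, both axes on a log scale. The day 28 curve for Il17a holds 847 cells and falls slowly, and the day 14 curve starts highest, at 323 UMIs, and holds 77 cells.

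Il23r encodes the IL-23-specific chain of the receptor on producing cells. It was 6.47 CPM in control lymphoid cells (3 UMIs), 22.3 on day 7 (14 UMIs), 33.7 on day 14 (68 UMIs), 30.2 on day 28 (74 UMIs) and 6.40 on day 60 (7 UMIs). The intervals of days 7, 14 and 28 overlapped, and those of days 14 and 28, 26.2 to 42.8 and 23.7 to 37.9, lay above that of day 60, 2.57 to 13.2. Il23r therefore did not follow the order of Il17a, whose day 28 level was far above its day 14 level. Of Il23r-positive lymphoid cells 27 of 47 also had an Il17a UMI on day 14 and 49 of 64 on day 28. Fibroblasts held 10 Il23r UMIs in control and 24 on day 7, at 0.271 and 0.380 CPM, and none on days 14, 28 or 60, so in control and on day 7 most Il23r UMIs of the library lay outside lymphoid cells.

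Subset markers divided the lymphoid cells unevenly. T cell receptor complex genes (Cd3d, Cd3e or Cd3g) were seen in 333 of 529 cells on day 14, and Il17a was 1548 CPM in those and 12.2 in the rest. On day 60 all 909 Il17a UMIs lay in the 229 cells with a Cd3 UMI. On day 28 cells without a Cd3 UMI still had 3608 CPM of Il17a beside 5612 in cells with one, and their median depth was 1203 UMIs against 1687. Cells with a UMI of the cytotoxic genes Nkg7, Klrd1, Ncr1, Prf1 or Gzmb held 115 CPM of Il17a on day 14 against 1899 in cells without, 3128 against 5600 on day 28 and 441 against 1317 on day 60.

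The CD8 coreceptor genes Cd8a and Cd8b went with lower Il17a on day 60, with 97.7 CPM in 102 cells with a UMI against 1344 in 167 without. On day 28 the levels lay close, 5374 and 5155, though 45.6% against 62.0% of cells were positive. On day 14 the 83 cells with a UMI had 1444 against 972 but a smaller share of positive cells, 8.43% against 15.7%. That 1444 rested on 467 UMIs in 7 cells. Cd4 was counted in 100 lymphoid cells in all, so most cells were called neither CD4 nor CD8. Sox13, a gene of IL-17-producing gamma delta T cells, was seen in 36 cells on day 28, of which 80.6% had an Il17a UMI against 60.1% of the 1360 others. The gamma delta receptor constant genes Trdc, Trgc1 and Trgc2 were looked up but not found among the gene symbols, so gamma delta and other T cells were not separated.

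Unsupervised clustering of all cells, with the 7 genes left out of the genes used, gave 41 clusters, 2 of them lymphoid. The first, 1887 cells of which 67.1% came from day 28, was led by Il17a, Il17f, Tnfrsf4 (the costimulatory receptor OX40), Tnfsf8, Adam19 and Ccr6. It held Il17a at 3390 CPM, Il17f at 418, Il22 at 93.1 and Il23r at 35.3. The second, 543 cells led by the granule genes Gzmm and Gzma with Ccl5 and Nkg7, held 3.50, 0.999, 0 and 0.999 CPM. In this second cluster the 7 Il17a UMIs were all from day 28. The first cluster held Il17a at 26.2 CPM in control, 257 on day 7, 1677 on day 14, 5655 on day 28 and 1431 on day 60. The order of libraries was that of the gated class. Since the cluster held 15734 of the 15780 Il17a UMIs of that class, this order is not a separate result.

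Lymphoid cells with an Il17a UMI were compared with those without in the 2 libraries that had at least 50 of them, as a description of cells split by their own transcript. Of 17 listed genes of the T helper 17 programme, 10 had enough UMIs on day 14, of which 6 were at least 2-fold higher in the 77 positive cells and 0 at least 2-fold lower. Over all 3886 genes compared, 3.27% were at least 2-fold higher. On day 28, 4 of 14 were higher and 1 lower in the 847 positive cells, beside 1.77% higher of 3955 genes. The share of all genes at least 2-fold lower was not counted, so the counts of lower genes have no background. The 6 on day 14 were Il23r (116 against 14.1 CPM, 8.20-fold), the scavenger receptor gene Scart1 of gamma delta T cells (7.36-fold), the chemokine receptor gene Cxcr6 (4.19-fold) and the transcription factor genes Irf4 (2.38-fold), Batf (2.14-fold) and Maf (2.09-fold). The 4 on day 28 were Zbtb16, a regulator of innate-like T cells (10.4-fold, 3.37 to 51.9, on 54 and 3 UMIs), the kinase gene Blk (4.06-fold), the IL-1 receptor gene Il1r1 (2.04-fold) and Scart1 (2.02-fold), while Ahr, a ligand-activated factor that promotes Il22, was 0.452-fold.

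Ccr6, a homing receptor of IL-17 producers, was 144 against 95.9 CPM on day 14 and 165 against 178 on day 28, and Rora, a nuclear receptor gene, was 438 against 352 and 570 against 328. Genes were also ranked under another filter, at least 50 CPM and a UMI in at least 10% of positive cells in each library. Those highest in positive cells in both libraries were Il17f (22.1-fold on day 14 and 12.5-fold on day 28), Adam18 (7.54 and 6.0), the listed gene Blk (9.50 and 4.06), the mitochondrial electron carrier gene Fdx1 (5.35 and 3.18) and the collagenase gene Mmp13 (3.08 and 2.64). They were followed by Cdc42ep3 (2.61 and 3.27), the proteoglycan gene Sdc4 (4.23 and 2.51), the muscle enolase gene Eno3 (2.47 and 2.54), Pxdc1 (4.90 and 2.41) and Il22 (16.1 and 2.40). Blk had 34 and 15 UMIs on day 14, too few to be measured in the list count of that library. Cytotoxic genes went the other way, with Nkg7 at 38.6 against 723 CPM on day 14 and 19.3 against 443 on day 28. Krt5, a keratinocyte gene used here as a measure of RNA from other cells, was 283 against 401 CPM on day 14 and 1020 against 1172 on day 28, so it was not higher in the positive cells.

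Il17a UMIs were also counted in cells of other classes, most of them on day 28. In that library keratinocytes held 13.8 CPM (960 UMIs), fibroblasts 37.4, dendritic cells 48.1, neutrophils 112, macrophages 252 and plasmacytoid dendritic cells 267, against 5178 in lymphoid cells. In control and on day 7 no class other than lymphoid cells held more than 1 Il17a UMI, and another 11 on day 7 were in ungated cells. On day 28, 7.54% of 4586 keratinocytes had a UMI at a median of 11455.5 UMIs per cell, or 1.08% when thinned to 1000 UMIs, against 57.2% of lymphoid cells thinned alike. In macrophages 45.7% of the Il17a UMIs lay in 1 cell, and in plasmacytoid dendritic cells 74.0% did.

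Il17a was set beside Cd3 UMIs (Cd3d, Cd3e and Cd3g summed), genes of the T cell receptor complex. On day 28 there were 4.32 Il17a UMIs per Cd3 UMI in lymphoid cells, 3.56 in keratinocytes (270 Cd3 UMIs) and 4.51 in dendritic cells (35 Cd3 UMIs). In the other classes the ratio rested on 2 to 38 Cd3 UMIs and ranged widely, from 1.32 in plasmacytoid dendritic cells and 1.64 in mural cells to 7.50 in neutrophils and 12.3 in macrophages. In fibroblasts (5.09) and Schwann cells (2.93) 53.8% and 51.2% of the Il17a UMIs lay in 1 cell. On day 14 keratinocytes had 0.196 Il17a UMIs per Cd3 UMI against 0.955 in lymphoid cells. Plasmacytoid dendritic cells then held 305 Cd3 UMIs, 174 CPM, and no Il17a UMI, so Cd3 was not confined to the lymphoid class. In keratinocytes on day 60 the ratio was 0.869 beside 0.617 in lymphoid cells, and 41.1% of the 73 Il17a UMIs were in 1 cell. RNA of other cells was also present among lymphoid cells, whose Krt5 level was 567 CPM in control, 278 on day 7, 379 on day 14, 1076 on day 28 and 931 on day 60, beside 4485 to 8874 in keratinocytes. The part of free RNA and of doublets in these values was not tested.

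IL-23, the cytokine read by Il23r, is made of the chains Il23a and Il12b. Il23a was highest in neutrophils, at 21.1 CPM in control (3 UMIs), 127 on day 7 (15 UMIs), 1523 on day 14 (448 UMIs) and 739 on day 28 (198 UMIs), and the day 60 library had fewer than 50 neutrophils. Dendritic cells held 2.71, 2.28, 35.6, 25.6 and 2.19 CPM in control and on days 7, 14, 28 and 60. Keratinocytes held 7.52, 3.83, 6.53, 13.6 and 7.97. Il12b was found in dendritic cells, at 174 CPM (149 to 202) on day 14, 21.6 (16.9 to 27.3) on day 28 and 94.2 (68.2 to 127) on day 60, with no UMI in 92 dendritic cells of control and 145 of day 7. On day 60 these UMIs came from 3.33% of 60 cells, and on day 14 from 10.4% of 135. On days 14 and 28 neutrophils thus had the most Il23a, and dendritic cells held UMIs of both chains, with Il23a far below its neutrophil level. The part of RNA from other cells in the dendritic Il23a was not tested.

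Il12rb1, the partner chain of IL-23R, was scarce in lymphoid cells, with 0, 4, 5, 11 and 2 UMIs in control and on days 7, 14, 28 and 60. Il1b, which primes IL-17 producers, was 6036 CPM in control neutrophils, 10686 on day 7, 16242 on day 14 and 10049 on day 28, and in macrophages it was 99.6, 310, 2020 and 866. Il1r1, its receptor, was 20.4 CPM (15.2 to 26.9) in day 28 lymphoid cells and 0 to 4.57 in the other libraries. Il6, which promotes T helper 17 differentiation, was 883 CPM in control fibroblasts, 404 on day 7, 1428 on day 14, 722 on day 28 and 367 on day 60. The day 14 fibroblasts were 73 cells.

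**Figure D3:**
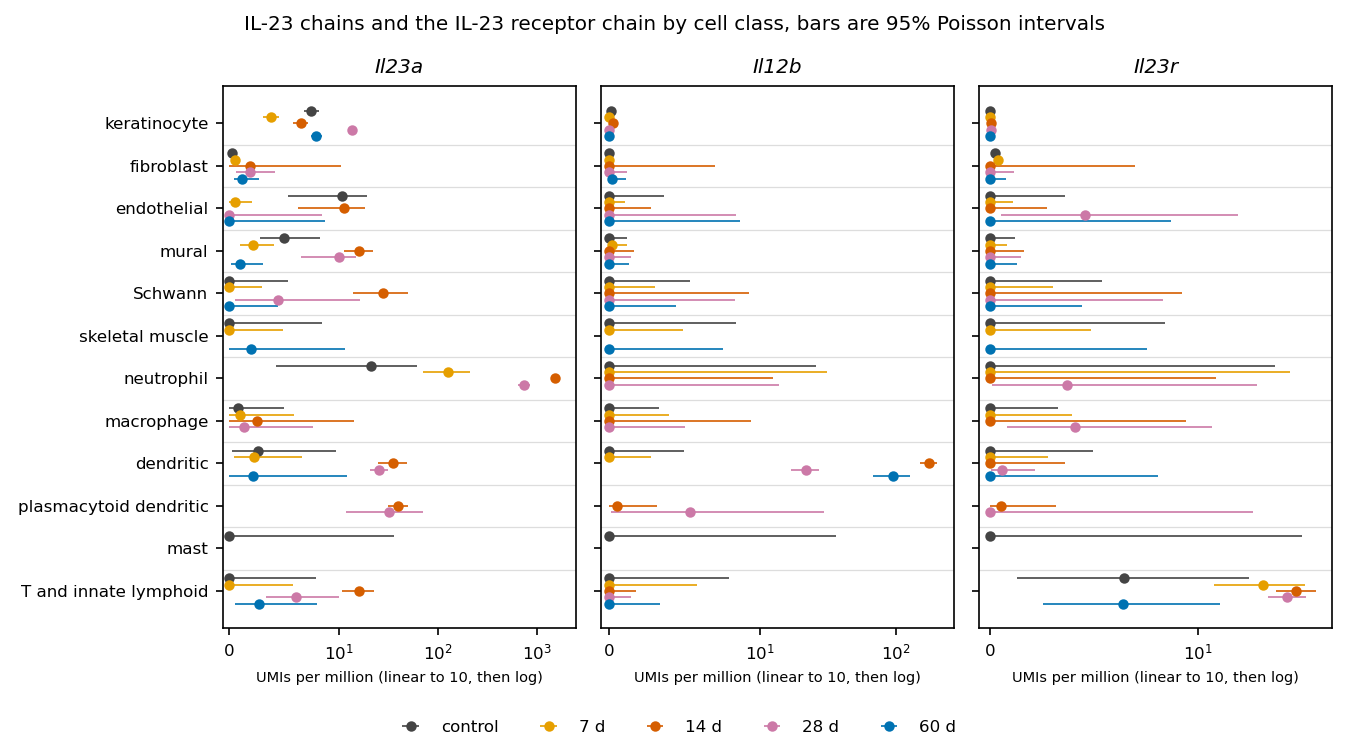
Level of the IL-23 chains Il23a and Il12b and of the receptor chain Il23r in every class with at least 50 cells in a library, in CPM on an axis that is linear to 10 and logarithmic above, with 95% Poisson intervals. Il23a is highest in neutrophils, 1523 on day 14, Il12b in dendritic cells, 174 on day 14, and Il23r in lymphoid cells, at most 33.7.

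Most UMIs of the receptor chains of target cells lay outside lymphoid cells. As a level in CPM, though, Il17ra was higher in lymphoid cells than in keratinocytes in every library, as given below. Il17ra encodes the chain shared by several IL-17 receptors, and 49.7% (48.8 to 50.7) of its 10886 UMIs were in keratinocytes, which were 45.9% of kept cells, and 28.7% in fibroblasts, which were 25.3%. A share of UMIs also rises with depth, and the median per cell was 10645 to 24955 UMIs in keratinocytes against 1554 to 4143 in lymphoid cells. With cells thinned to the same depth the keratinocyte share of Il17ra was 30.6%, below their 45.9% of kept cells. The 49.7% is therefore not a sign that Il17ra was enriched in keratinocytes. Before thinning, mural cells held 1.52% of the Il17ra UMIs, as 5.88% of kept cells. Il17rc, which pairs with Il17ra to bind IL-17A and IL-17F, had 81.9% (81.2 to 82.6) of 13099 UMIs in keratinocytes and 13.0% in fibroblasts. These shares depend on the makeup of the libraries: on day 7, when 58.3% of kept cells were fibroblasts and 16.0% keratinocytes, fibroblasts held 54.8% of the Il17rc UMIs and keratinocytes 33.1%. Il22ra1, the ligand-binding chain for IL-22, had 95.3% of 1951 UMIs in keratinocytes. Lymphoid cells held no Il22ra1 UMI in any library, and on day 28 a count of 3 UMIs would have been 1.23 CPM.

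Il17ra was highest in neutrophils in control and on days 7 and 28. Neutrophils held 281 CPM (201 to 382) in control, 203 (130 to 302) on day 7, 30.6 (14.0 to 58.1) on day 14 and 175 (129 to 233) on day 28, so the day 14 library stood below the other 3, also with the stricter cell filter, which gave 54.1. Lymphoid cells held 56.0, 79.5, 68.0, 82.9 and 42.0 CPM in control and on days 7, 14, 28 and 60, and sorted by level the intervals of neighbours overlapped. Macrophages held 57.4 in control, 97.7 on day 7, 43.5 on day 14 and 54.7 on day 28, but the day 7 value was 49.7 when clusters took the place of the gate and 59.3 with a stricter cell filter. Dendritic cells held 20.7 to 43.2 CPM, and plasmacytoid dendritic cells 72.3 on day 14 and 58.8 on day 28.

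In keratinocytes Il17ra was 27.7 CPM (26.4 to 29.0) in control, 17.5 on day 7, 13.1 (12.1 to 14.0) on day 14, 16.3 on day 28 and 10.7 (10.1 to 11.3) on day 60. All 4 irradiated libraries lay below control, at 0.631, 0.472, 0.591 and 0.387 of it on days 7, 14, 28 and 60, and the intervals of days 7 and 28 overlapped. The libraries drew on different keratinocyte clusters: the one led by Krt79 and Krt77, highest in Il17ra at 38.1 CPM, was 83.9% control cells, and the one led by Mmp13 and Mmp3, at 10.2 CPM, was 59.0% day 60 cells. Within the Mmp13 cluster Il17ra was 10.1 CPM in control, 13.5 on day 14, 14.1 on day 28 and 8.14 on day 60, and within the cluster led by Pcp4 it was 31.2 in control, 30.9 on day 28 and 18.2 on day 60. Within the cluster led by Krt78 it was 13.6 in control, 6.29 on day 28 and 5.39 on day 60. Clusters thus differed in how day 28 stood to control, while in these 3 day 60 was the lowest, and the part of cluster makeup in the class level was not tested. In fibroblasts it was 32.0 CPM in control, 27.5 on day 7, 77.8 (55.8 to 106, 41 UMIs) on day 14, 23.3 on day 28 and 17.9 on day 60. The median gene of keratinocytes was also lower than in control on day 14, by 0.51 on the log2 scale, which bears on every keratinocyte value of that library given in CPM.

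Il17rc in keratinocytes was 33.6 CPM (32.2 to 35.1) in control, 22.2 (20.5 to 24.0) on day 7, 41.9 (40.3 to 43.7) on day 14, 33.2 (31.9 to 34.6) on day 28 and 27.0 (26.1 to 28.0) on day 60. It thus stood lowest on day 7 and highest on day 14, and control and day 28 did not differ beyond their intervals. Fibroblasts held 14.7 CPM in control, 16.9 on day 7, 15.2 on day 14, 7.36 (4.66 to 11.0) on day 28 and 14.0 on day 60. Lymphoid cells held 2.98 to 7.35, on 3 to 18 UMIs a library, mural cells 10.3 to 14.7, endothelial cells 8.85 to 16.5 and dendritic cells 1.35 to 4.94. Among keratinocyte clusters Il17rc was 49.3 CPM in the one led by Krt78, Serpinb12 and Krt10, genes of differentiating epidermis, 42.6 in the one led by Apoc1 and Stra8, and 41.5 in the one led by S100a8, S100a9 and Krt16. The last of these was 47.1% day 14 cells, and the cluster led by S100a4 and Krt24, at 18.5 CPM, was 53.3% day 7 cells. The cluster led by Krt78 drew most on day 60, with 40.5% of its cells, and the one led by Apoc1 was 88.6% control cells. The part of cluster makeup in the class levels was not tested.

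Il22ra1 in keratinocytes was 8.10 CPM (7.41 to 8.84) in control, 6.86 on day 7, 5.95 on day 14, 5.39 on day 28 and 3.64 (3.31 to 4.0) on day 60. The neighbours in this order overlapped except day 28 and day 60, and days 14, 28 and 60 all lay below control. When cells were thinned the day 60 level was 1.83 (0.946 to 3.20). Fibroblasts held at most 0.640 CPM. The keratinocyte cluster led by Krt79 and Krt77, genes of the upper hair follicle and its ducts, had the most, 13.3 CPM (11.7 to 15.1), beside 0.539 to 7.07 in the other 11 keratinocyte clusters, and 83.9% of its 1208 cells came from control. How far the lower levels after irradiation follow from that makeup was not tested.

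**Figure D4:**
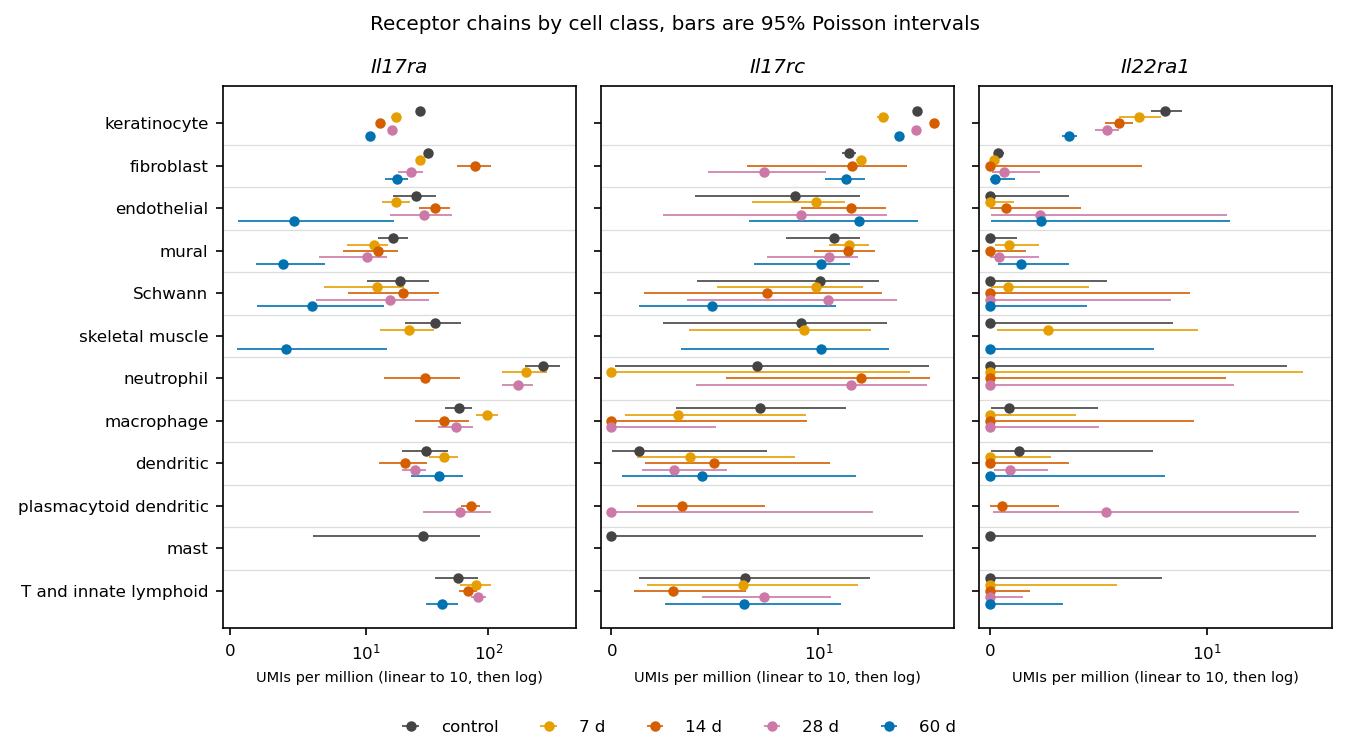
Level of Il17ra, Il17rc and Il22ra1 in every class with at least 50 cells in a library, in CPM on an axis that is linear to 10 and logarithmic above, with 95% Poisson intervals. Il17ra appears in every class and reaches 281 in control neutrophils, while Il22ra1 is between 3.64 and 8.10 in keratinocytes and elsewhere at most 5.34, on 1 UMI of day 28 plasmacytoid dendritic cells.

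Other chains and cytokines of the families followed their own patterns. Il10rb, the second IL-22 receptor chain, was 6.86 to 8.22 CPM in keratinocytes and up to 139 in neutrophils. Il22ra2, a soluble binding protein that blocks IL-22, was 2.22 CPM in control keratinocytes, 9.28 on day 7, 0.142 on day 14, 0.605 on day 28 and 2.04 on day 60. Il17re, the receptor chain for IL-17C, was 10.3 to 16.6 in keratinocytes. Il17b, a family member not made by T cells, was 30.8, 29.6, 68.2, 40.7 and 55 CPM in keratinocytes, and Il17d was 54.2, 58.3, 34.1, 60.1 and 112 in fibroblasts.

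Genes known to answer IL-17 or IL-22 were counted in the 2 main target classes, as the number at least 2-fold above or below control among those with at least 50 UMIs in both libraries together. The list was chosen with earlier results of these data known, so its counts are a description. In keratinocytes, of 34 listed genes, 6 of 26 measured were higher and 1 lower on day 7, where 7.27% of all genes were higher and 5.65% lower. On day 14, 19 of 30 were higher and 7 lower, beside 6.88% and 33.3% of all genes. On day 28, 18 of 30 were higher and 5 lower, beside 5.67% and 17.5%. On day 60, 9 of 27 were higher and 9 lower, beside 3.35% and 16.8%. The median of the list was -0.03, 1.81, 1.33 and -0.17 on the log2 scale in these 4 libraries, and that of all genes was 0.11, -0.51, -0.25 and -0.20.

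The calprotectin genes S100a8 and S100a9, whose products bind metal ions and act on microbes, were far above control. S100a8 was 6.04 CPM in control keratinocytes, 62.9 on day 7, 8017 on day 14, 1070 on day 28 and 299 on day 60. The same gene was 9678 CPM in neutrophils on day 14, and at that time it was also 229 in lymphoid cells and 346 in endothelial cells. The hyperproliferation keratin Krt16 was 11.0, 66.3, 894, 199 and 44.4 CPM, and the cornified envelope gene Sprr1b 0.514, 3.79, 98.6, 14.3 and 1.81. The beta-defensin genes Defb4 and Defb3 had 1 UMI each in control keratinocytes and 1562 and 782 UMIs on day 14, 27.7 and 13.9 CPM, and 66 and 268 UMIs on day 28.

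Csf3, the growth factor of neutrophils, was 0.996 CPM in control keratinocytes, 1.10 on day 7, 31.7 on day 14, 4.70 on day 28 and 0.187 on day 60. Il24, a cytokine of the IL-20 group, was 23.1 CPM in control and 39.0, 142, 122 and 57.7 on days 7, 14, 28 and 60. The proteases Mmp13 and Mmp9 were highest on day 28, Mmp13 at 69.5 CPM against 6.40 in control and Mmp9 at 27.9 against 1.40. Reg3g, an antimicrobial lectin, had another time course, with 0.353 CPM in control, 267 on day 7, 1.86 on day 14, 0.476 on day 28 and 1.71 on day 60. Its highest level was on day 7. Lymphoid Il17a was 116 CPM on day 7 and 5178 on day 28, and a link between these 2 genes was not tested.

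Other listed genes were below control in keratinocytes. Ccl20, the ligand of Ccr6, was 1787 CPM in control and 1631, 344, 657 and 558 on days 7, 14, 28 and 60. Cxcl1, which draws neutrophils, was 574 in control and 689, 210, 229 and 265, while its relatives Cxcl2 and Cxcl3 were 3.23-fold and 2.92-fold above control on day 14. Of 16 measured signalling genes of the IL-17 receptor, 0 were at least 2-fold higher in any library and 0, 4, 2 and 3 were lower on days 7, 14, 28 and 60, where 5.65%, 33.3%, 17.5% and 16.8% of all genes were lower, so these counts lie near the background. Traf3ip2, the adaptor Act1, was 12.1 CPM in control and 7.92 to 12.7 after irradiation, and Nfkbiz, a target and effector of the pathway, was 347 and 117 to 304. Stat3, which carries the signal of the IL-22 receptor, was 0.383-fold to 0.780-fold. It was not typical of the 6 measured IL-22 signalling genes. Of these, 1, 2, 1 and 1 were at least 2-fold higher on days 7, 14, 28 and 60, and 0, 2, 0 and 1 lower. Of all genes 7.27%, 6.88%, 5.67% and 3.35% were higher on those days. The 7 other receptor chains of the families included 1 higher and 1 lower gene on day 7, 0 and 5 on day 14, 0 and 3 on day 28, and 0 and 1 on day 60. Of 10 measured inducers and their receptors, 1 was higher and 2 lower on day 7, 1 and 7 on day 14, 1 and 3 on day 28, and 0 and 4 on day 60, with Il1b the 1 that was higher. Both sets are small and are to be read against the same 5.65%, 33.3%, 17.5% and 16.8% of all genes that were lower. Of 4 measured other cytokines of the families 3 were higher on day 14, 2 on day 28 and 2 on day 60, none of 3 measured was on day 7, and none was lower in any library, beside 6.88%, 5.67% and 3.35% of all genes higher on days 14, 28 and 60.

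In fibroblasts Lcn2, Mmp3 and Mmp13 were above control on days 14 and 28, and the chemokine genes Ccl2, Cxcl1 and Cxcl3 were below it in all 4 irradiated libraries. Of the same list 4 of 23 measured genes were at least 2-fold higher and 9 lower on day 7, beside 5.87% and 2.54% of all genes. On day 14, with 73 fibroblasts, 8 of 19 were higher and 4 lower, beside 11.3% and 10.4%. On day 28, 11 of 21 were higher and 4 lower, beside 11.4% and 6.88%. On day 60, 3 of 18 were higher and 11 lower, beside 13.3% and 7.28%. The medians were -0.89, 0.69, 1.04 and -1.42 on the log2 scale against 0.12, 0, 0.15 and 0.24 for all genes.

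Lcn2, an iron-binding antimicrobial protein, was 1.06 CPM in control fibroblasts, 1.36 on day 7, 262 (138 UMIs) on day 14 and 278 (869 UMIs) on day 28. In keratinocytes Lcn2 was between 2.27 and 3.86 CPM in all 5 libraries. Mmp13 was 2.41 CPM in control fibroblasts, 0.269 on day 7, 231 on day 14, 131 on day 28 and 2.30 on day 60, and Mmp3 was 144, 217, 658, 635 and 29.4. Nfkbiz was 127 CPM in control and 249 to 453 in the irradiated libraries, whereas it was below control in keratinocytes. Cxcl3, a chemokine gene of neutrophil recruitment, was 2616 CPM in control and 353, 338, 84.4 and 23.2 on days 7, 14, 28 and 60. The fibroblasts also came from different clusters, with the one led by Thbs4, Cxcl3 and Il1rl1 89.7% control cells and the one led by Trh and Pcsk6 82.5% day 7 cells, and the part of that makeup in the levels was not tested. Ccl2, which draws monocytes, was 17963 and then 6134, 7523, 2403 and 1748. S100a8, a gene of keratinocytes and neutrophils, was 121 CPM in day 14 fibroblasts on 64 UMIs, below the 229 and 346 in lymphoid and endothelial cells of that library.

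**Figure D5:**
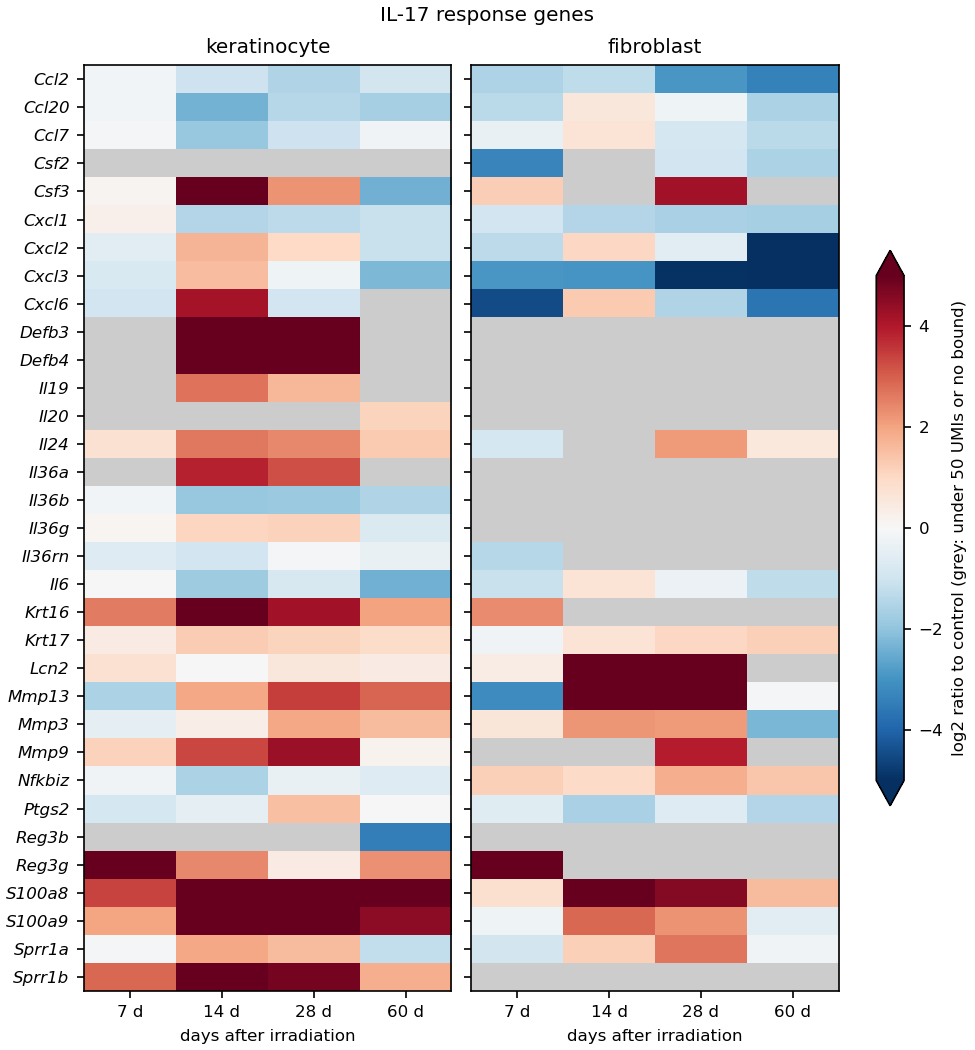
Log2 ratio to control of genes known to answer IL-17 or IL-22, in keratinocytes (left) and fibroblasts (right) of the 4 irradiated libraries, with colours limited at 5 either way and grey where fewer than 50 UMIs were counted in both libraries or a count of 0 gives no bound. In keratinocytes 19 of 30 genes on day 14 and 18 of 30 on day 28 are at least 2-fold higher, and in fibroblasts the chemokine genes Ccl2, Cxcl1 and Cxcl3 are lower in every library.

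The genes whose levels ran most like each of the 7 were taken by Pearson correlation of log2(CPM + 1) over 49 points, each 1 class in 1 library with at least 50 cells. The points share libraries and depth, so the coefficients are a description. Il17a ran with Icos, a costimulatory receptor of activated T cells (0.89), Il17f (0.88) and Adam18 (0.84). Il17f ran with Icos (0.91) and Tnfrsf4 (0.89), Il22 with Scart1 (0.91), Lta (0.88) and Il17f (0.87), and Il23r with Zap70, a T cell receptor kinase (0.92), Scart1 (0.92) and Klrc1 (0.91). The receptor chains had looser partners, Diaph1 (0.80), Gmfg (0.78) and Pim1 (0.75) for Il17ra, Lurap1l (0.77), Cks1b (0.77) and Wls (0.75) for Il17rc, and Creb3l4 (0.83), Znf750, a regulator of epidermal differentiation (0.81), and Ltb4r2 (0.78) for Il22ra1.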

How the data were processed

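Single cells from 5 skin libraries had been aligned and counted by the authors with Cell Ranger 5.0.0 and STAR against Rnor_6.0, with Seurat 3.1.1 also named in the submitters' processing notes. The deposited matrices hold counts of UMIs per gene and barcode, whole numbers with no normalization, for 32623 gene rows, and 2753 rows that share a symbol were summed.

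Cells were kept from 500 UMIs and 300 genes upward when mitochondrial UMIs (13 genes) did not exceed 20%, which left 43408 of 49507. A cell's class came from the summed marker UMIs of its 20 nearest neighbours in 40 components of 3000 variable genes, without the 7 genes: each marker was scaled to its 0.995 quantile over cells (at least 20 CPM), and the best class had to lead the second by 0.1. Of 114 markers 107 were found. This scoring rule was set after a first one had left shallow lymphoid cells of the day 28 library ungated. No doublet caller was run, so doublets remain. For the alternative grouping, Leiden clusters at resolution 1 were used.

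With 1 library per group no test between libraries was made. CPM intervals are exact Poisson, shares exact binomial (Clopper-Pearson), and ratios exact conditional binomial, all at 95%. A count of 0 was bounded at 3 counts, and a gene counted as 2-fold different from 0 only by that bound. The interval functions and ratios were tested on simulated counts. Thinning drew 1000 UMIs per cell.

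The 7 genes, the 7 gene lists and the markers were chosen with earlier results of these data known. Of each list the 4 genes with the most UMIs and those with a ratio of at least 4 either way could be named. Il10rb, Il17re, Il17b, Il17d, Il12rb1, Il1r1, Il6, Traf3ip2, Stat3, Ccr6, Rora, the genes named within the T helper 17 programme and cytotoxic lists and the fibroblast examples were named for their role, after their values were seen. Python 3.11.15, numpy 2.4.6, scipy 1.17.1, pandas 2.3.3, scanpy 1.11.5, scikit-learn 1.9.0, igraph 0.11.9 and matplotlib 3.10.9 were used. Results for 2 listed genes are not reported here.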

Additional observations from a re-analysis of the deposited data

How the results depend on the processing

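No paired analysis was possible because each group has 1 library. Of the values that answer a comparison 82 moved by less than their counting interval, or 1.5 times for a count of genes, under the alternatives and 31 moved further, and of the single values 461 moved by less and 49 further. The alternatives behind them were no cell filter, the stricter filter (1000 UMIs, 500 genes, 10% mitochondrial) and clusters in place of the gate. A wider gap of 0.2, thinning, centring on the median gene, a minimum of 200 UMIs and a cut of 2 Il17a UMIs were also used. So was leaving out the day 28 library, the top cell, the shared barcodes, or keratinocytes and fibroblasts with a UMI of the lymphoid genes named below. The lymphoid share of Il17a UMIs was 88.0% with the stricter filter, 85.8% with no filter, 91.0% with clusters, 80.5% with the wider gap and 91.9% without the day 28 library. For Il17f it was 86.7% with no filter, 81.5% with the wider gap and 96.4% without the day 28 library. The lymphoid Il17a level was 5302 CPM on day 28 with the stricter filter, 5024 with no filter and 5034 with clusters, and 946 on day 60 with no filter. Thinned, it was 59.3 on day 7, 789 on day 14 and 1019 on day 60, so that the order of days 14 and 60 reversed. Without the top cell it was 2.17 in control, 69.6 on day 7, 892 on day 14 and 721 on day 60. The keratinocyte share was 48.0% for Il17ra, 80.8% for Il17rc and 93.2% for Il22ra1 with the wider gap, 30.6%, 68.9% and 93.7% thinned, and 81.1% for Il17rc with clusters. Response genes at least 2-fold higher in fibroblasts were 2 of 16 on day 7 with a minimum of 200 UMIs, and with clusters 3 of 18 on day 14 and 5 of 18 on day 60. Of the T helper 17 programme 2 of 5 on day 14 and 2 of 10 on day 28 were higher when thinned, where fewer genes had enough UMIs. Apart from these constructions the cause was not tested. Leaving out the barcodes shared between libraries, and keratinocytes or fibroblasts with a UMI of Cd3d, Cd3e, Cd3g, Ptprc or Il17a (the latter, the top cell and the day 28 library chosen after seeing the data), moved none of the values named here. Among the single values, leaving out the shared barcodes moved 1. Depth limits Il23r and Il22 most, with 3 to 74 and 0 to 330 lymphoid UMIs a library.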
